A study of Mus musculus with 9 samples.

Results

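Genes of cellular iron handling were described in MIN6, an insulin-producing line from a mouse insulinoma that stands in for pancreatic beta cells in culture. The 10 genes were taken by name for their known roles, with earlier results of these data already known: Tfrc, Slc11a2 and Steap3 for uptake, Fth1, Ftl1 and Ncoa4 for storage, Slc40a1 for export, Ireb2 and Aco1 as the iron regulatory proteins, and Hmox1 for heme breakdown. They are 10 of the 52408 genes into which the deposited transcripts were grouped, and 9 of the 10, all but Steap3, were among the 11950 tested, which are those that reached 1 TPM in 3 or more libraries. TPM gives a transcript's share of all transcripts in its library after correction for length, so levels can be compared between genes, but it keeps no record of depth, and no counting intervals can be given.

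The study sequenced total RNA in 9 libraries, with 3 in each group. Control cells were untransfected, another group overexpressed the orphan nuclear receptor Nr4a1, and the last was treated with the green tea compound EGCG (epigallocatechin gallate) while overexpressing Nr4a1. The labels name neither an empty vector nor a vehicle for control cells, and the EGCG dose and time, the vector and how cells were transfected are not given in the sources used. EGCG was given only to overexpressing cells, so its effect without Nr4a1 was not measured. The labels leave unsaid whether each triplicate came from 3 cultures, so p-values reflect only how these libraries spread, which may be technical. The level of Nr4a1 was 0.723 ± 0.0814 TPM in control cells, 138.7 ± 23.1 in overexpressing cells and 53.9 ± 7.35 with EGCG (SD, n = 3 each). The RNA level of the receptor thus differed between the overexpressing groups too, and its protein was not measured here. All 8 beta cell markers reached 1 TPM in at least 3 libraries. Their summed level was 3721 to 3878 TPM in control cells, 5765 to 6049 with overexpression and 3991 to 4328 with EGCG, and thus moved in the same order as several members below. The summed level of 6 macrophage markers, the main iron-recycling cell type, was 0.67 to 1.2 TPM in control cells, 0.46 to 0.57 with overexpression and 0.58 to 0.62 with EGCG. Fibroblast markers summed to 0.4 to 0.82, 0.12 to 0.22 and 0.28 to 0.4 TPM, and endothelial markers to 0.22 to 0.5, 0.04 to 0.09 and 0.06 to 0.12 TPM, in the same order of groups. None of the macrophage, fibroblast or endothelial markers reached 1 TPM in 3 libraries, and 1 of 5 erythroid markers did. The part of these shifts in the results was not tested.

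Cells take up iron through the transferrin receptor, encoded by Tfrc. The iron is reduced in the endosome by STEAP3, moves to the cytosol through the transporter DMT1, encoded by Slc11a2, and is stored in ferritin, a shell of heavy (Fth1) and light (Ftl1) chains. NCOA4 delivers ferritin to lysosomes for breakdown, ferroportin (Slc40a1) exports iron, and heme oxygenase 1 (Hmox1) frees iron from heme. When iron is scarce, the iron regulatory proteins IRP1, encoded by Aco1, and IRP2, encoded by Ireb2, bind hairpins called iron-responsive elements (IREs) in the mRNA. Binding in the 5′ UTR blocks translation, as for ferritin and ferroportin, and binding in the 3′ UTR protects the mRNA from decay, as for Tfrc. The mRNA level of Tfrc is thus a known readout of IRP binding, while ferritin is known to be set largely at translation, which RNA sequencing does not measure. Beta cells hold much iron-dependent respiratory machinery, and their iron load is known to affect insulin secretion.

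The hairpins set the members apart in sequence, so they are shown here before the levels. Protein-coding transcripts of GENCODE M21 (GRCm38) were searched on the sense strand for CAGTGN (N being A, C or T) as the loop, 5 pairs of upper stem, an unpaired C before the 5′ arm of that stem, and at least 3 pairs among the next 4 bases of lower stem, with G-T counted as a pair. This unbulged form occurred in the UTRs of 19 of 21877 protein-coding genes (0.0869%), and 4 of them were members. Each site is written 5′ to 3′ with the 6 loop bases in capitals:
Fth1, 5′ UTR of Fth1-201: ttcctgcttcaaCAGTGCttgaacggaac
Ftl1, 5′ UTR of Ftl1-201: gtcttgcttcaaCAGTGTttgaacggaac
Slc40a1, 5′ UTR of Slc40a1-201: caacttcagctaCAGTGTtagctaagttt
Tfrc, 3′ UTR of Tfrc-201, the first site: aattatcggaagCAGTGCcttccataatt
Tfrc, the second site: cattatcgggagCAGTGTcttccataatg
Tfrc, the third site: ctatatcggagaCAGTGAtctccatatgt
Tfrc, the last site: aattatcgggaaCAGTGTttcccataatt
Slc11a2, 3′ UTR of Slc11a2-205: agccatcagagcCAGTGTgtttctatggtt
The Slc11a2 site has an extra unpaired base in the 3′ arm of the upper stem. It was found only with a bulged form of the search, added after the first form had missed it, and that form matched the UTRs of 37 genes (0.169%). The ferritin sites lay early in the transcript, at positions 87 to 115 of Fth1-201 and 78 to 106 of Ftl1-201, and that of ferroportin at positions 90 to 118 of Slc40a1-201. The 4 Tfrc sites lay between positions 3315 and 3834 of the 4890 bases of Tfrc-201, after a coding part that ends at position 2429, and no other coding transcript of Tfrc held a match. Likewise 1 of 6 coding transcripts of Slc11a2 held one. Some annotated coding transcripts are short, such as Tfrc-202 with 1860 bases and Slc11a2-207 with 389. For these a missing match does not show an mRNA form without the hairpin. No match was found in Ireb2, Aco1, Ncoa4, Hmox1 or Steap3. The search can miss hairpins that differ from both forms, so the matches are not a full count of IREs. A match is a description of letters and not a measurement of IRP binding.

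Overexpressing cells were first set against untransfected cells. Tfrc rose more than any other member, and the ferritin light chain, ferroportin, NCOA4, IRP1 and heme oxygenase 1 rose with it by smaller amounts. The ferritin heavy chain, DMT1 and IRP2 did not pass the test. Thus 6 of 9 tested members rose and none fell (log2(TPM + 1) fitted with limma, threshold 0.05 after Benjamini-Hochberg adjustment), while 59.5% of all tested genes changed, 38.2% higher and 21.3% lower, so a call alone sets no member apart. The groups did not overlap for the same 6 members and for 65% of all tested genes. Slc40a1, among the 6, was at 0.91 to 1.05 TPM in control and passed the filter through groups where it was higher. With a filter of 5 TPM, 5 of 8 tested members were called, beside 4938 of all 7577 genes then tested. The median log2 fold change was 0.52 over the 9 members and 0.10 over all genes tested. Of all 11950 genes 4561 rose and 2545 fell, and median-ratio scaling gave 3541 and 3547, quantile normalization gave 3559 and 3389, and rescaling on nuclear protein-coding genes gave 3812 and 3219. The 6 members that rose were called under each of these scalings. Under median-ratio and quantile scaling 8 members were called, beside 7088 and 6948 of all 11950 tested genes. Fth1 (-0.25 and -0.30) and Ireb2 (-0.27 and -0.25) were then lower. Ireb2 was also lower after rescaling on nuclear protein-coding genes (-0.24, limma, Benjamini-Hochberg adjusted p = 0.0366).

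Next, the EGCG group was set against overexpression alone. With EGCG 7 of 9 members fell and none rose, against 53% of all tested genes called, 34.1% lower and 18.8% higher, and those 7 were also the members whose groups did not overlap (64.6% of all tested genes). All 6 members that had risen with overexpression were among those 7, and Fth1 was the other. These comparisons share the overexpression libraries, so opposite directions between them are not independent. The member median was -0.33 and the median of all genes -0.09. Over all genes the split of 2250 higher and 4080 lower became 3054 and 3082 (median-ratio scaling), 2816 and 3101 (quantile normalization), 3234 and 2882 (rescaled with mitochondrial, small RNA and the most abundant genes left out) or 3462 and 2607 (rescaled on nuclear protein-coding genes). That last scaling moved the median of all genes to 0.04. Fth1 lost its call under all 4 scalings (limma, Benjamini-Hochberg adjusted p from 0.0994 to 0.505), and Ftl1 under all but quantile normalization (limma, Benjamini-Hochberg adjusted p from 0.172 to 0.276). Slc11a2, not called in the deposited scaling, was called higher under all 4 (0.32 to 0.39; limma, Benjamini-Hochberg adjusted p from 0.0125 to 0.0303). Tfrc, Slc40a1, Aco1, Ncoa4 and Hmox1 were called lower under each of these scalings.

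The EGCG group was also set against untransfected cells. Tfrc, Ftl1, Slc11a2, Aco1 and Ncoa4 were higher, Fth1 was lower, and 18.2% of all tested genes were called, 11.1% higher and 7.1% lower. The groups did not overlap for 8 of 9 members, all but Hmox1, and for 34.8% of all tested genes. This count of 6 of 9 was not stable. It was 1 without control library 1, without control library 2 or without EGCG library 1, 3 without EGCG library 2, 2 without EGCG library 3, 5 without control library 3, and 2 when only the groups compared were fitted. Calls over all 11950 tested genes moved too, from 2172 to 988 without control library 1 and 974 without control library 2. They were 735, 1246 and 1700 without EGCG libraries 1, 2 and 3. Without control library 3 they were 3239, and with only the groups compared 895. Ftl1, Aco1 and Ncoa4 each lost the call on leaving out any library except control library 3 (limma, Benjamini-Hochberg adjusted p from 0.0503 to 0.109). Slc11a2 lost it on leaving out any except EGCG library 2 (limma, Benjamini-Hochberg adjusted p from 0.0507 to 0.142), and Fth1 without control library 1, control library 2 or EGCG library 1 (from 0.0693 to 0.0824). Tfrc was called in all 18 alternative settings of this comparison, with adjusted p between 0.000467 and 0.00885 (limma, Benjamini-Hochberg), and no other member was. Over all genes, 1323 were higher and 849 lower, a split that became 1200 and 1154, 1212 and 1204, 3168 and 540, or 2315 and 664 under the same scalings in that order.

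**Figure D1:**
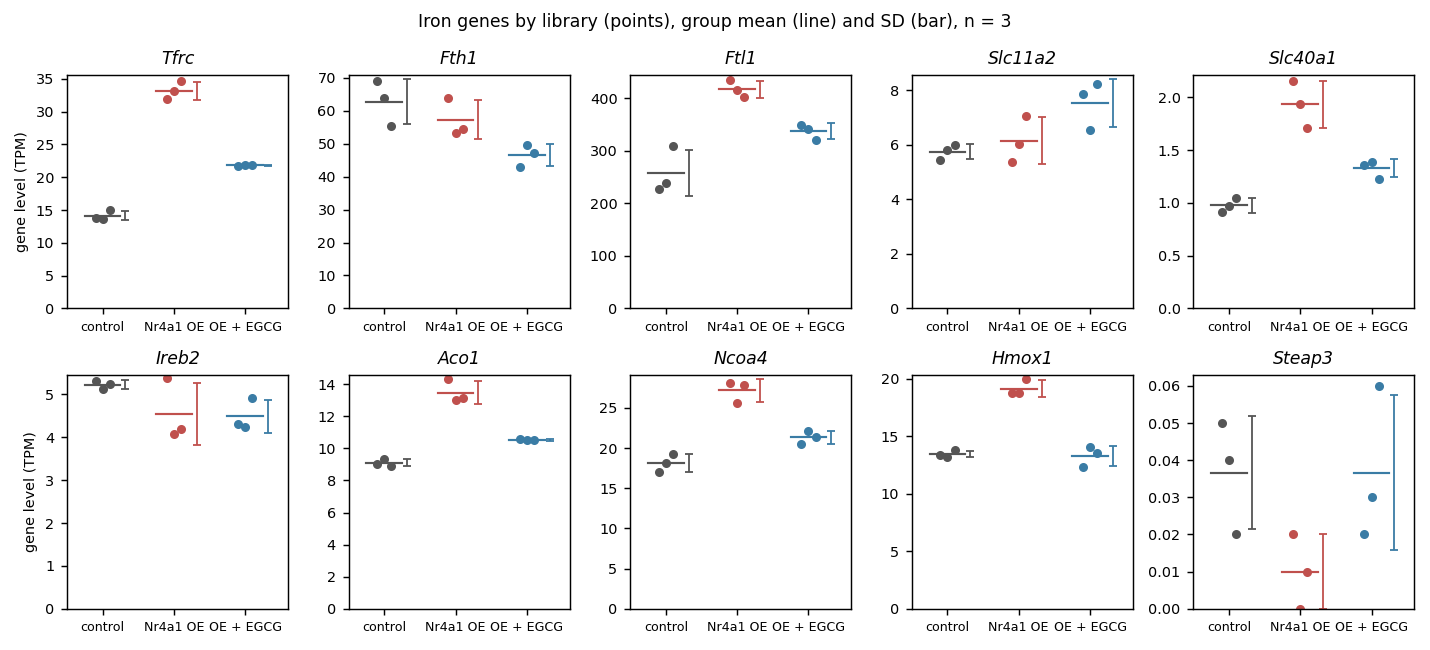
Gene level in TPM (vertical axes, from 0, each gene on its own scale) of the 10 iron genes in the 9 libraries, with points for libraries, lines for group means and bars for SD (n = 3). Tfrc was lowest in control (13.7 to 15.0 TPM), highest with overexpression (31.9 to 34.6 TPM) and between them with EGCG (21.8 to 21.9 TPM), while Fth1 was lowest with EGCG.

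Tfrc, on chromosome 16, encodes the receptor that brings transferrin-bound iron into the cell. It was at 13.7, 13.7 and 15.0 TPM in the control libraries, 31.9, 33.1 and 34.6 TPM with overexpression and 21.8, 21.9 and 21.9 TPM with EGCG. The 3 groups did not overlap in any pair, and the EGCG libraries lay between the others. Overexpression raised its group mean 2.35-fold (log2 fold change 1.18 ± 0.0524, SE by limma; Benjamini-Hochberg adjusted p = 6.21e-07), which placed it at the 98.3rd percentile of all tested genes in the main fit. EGCG lowered it to 65.8% of the overexpression level (-0.58 ± 0.0524, SE by limma; Benjamini-Hochberg adjusted p = 3.12e-05), still 1.55-fold above control (0.60 ± 0.0524, SE by limma; Benjamini-Hochberg adjusted p = 0.00073). All 3 calls held in all 18 alternative settings.

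Slc11a2, on chromosome 15, encodes DMT1, which carries ferrous iron out of the endosome. Its level was 5.43, 5.82 and 5.97 TPM in control cells, 5.37, 6.03 and 7.05 TPM with overexpression and 7.85, 6.54 and 8.21 TPM with EGCG. Control and overexpression overlapped, and the EGCG libraries all lay above control. Overexpression gave a log2 fold change of 0.08 (95% interval -0.15 to 0.31; limma, Benjamini-Hochberg adjusted p = 0.518), whose sign turned in some settings. EGCG against overexpression gave 0.26 (limma, Benjamini-Hochberg adjusted p = 0.0561), called in 8 of 18 alternatives, among them those without overexpression library 3 (limma, Benjamini-Hochberg adjusted p = 0.0209) and without EGCG library 2 (0.0197). Against control the value was 0.34 (limma, Benjamini-Hochberg adjusted p = 0.0478), called in 6 of 18 alternatives. By gene sum, Slc11a2 was the only tested member with a higher mean in the EGCG group than in the overexpression group. Part of that sum came from Slc11a2-207, the transcript of 389 bases. It held 41.6% (control), 10.3% (overexpression) and 29.1% (EGCG group) of the gene. Its mean was 0.633 TPM in overexpressing cells, against 2.19 in the EGCG group and 2.39 in untransfected cells. Slc11a2-201 was at 1.42 to 2.19 TPM in control, 2.16 to 2.45 with overexpression and 2.4 to 2.66 with EGCG. Slc11a2-205 was at 1.05 to 1.32, 1.75 to 2.05 and 1.42 to 1.71 TPM. Both had higher means with overexpression than in control, as had the scarcer Slc11a2-204 and Slc11a2-206, while Slc11a2-203 and Slc11a2-207 were lower. From overexpression to EGCG, Slc11a2-205 and Slc11a2-206 fell in mean and the others listed rose. The gene values above thus do not hold for every transcript, and a gene sum without Slc11a2-207 was not tested.

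Steap3, on chromosome 1, encodes the endosomal ferrireductase of erythroid cells. It was listed at 0.05, 0.04 and 0.02 TPM in control cells, 0.02, 0 and 0.01 TPM with overexpression and 0.02, 0.03 and 0.06 TPM with EGCG, and was not tested. For scale, the 1480 odorant, vomeronasal and trace-amine receptor genes averaged 0.0338 to 0.0728 TPM a gene in control libraries, 0.00286 to 0.00319 with overexpression and 0.00531 to 0.00797 with EGCG.

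Fth1, on chromosome 19, encodes the ferritin heavy chain, which oxidises iron for storage. Its values were 68.9, 64.0 and 55.3 TPM in control cells, 63.9, 53.1 and 54.6 TPM with overexpression and 43.0, 49.7 and 47.0 TPM with EGCG. Control and overexpression overlapped, and all EGCG libraries were below all others. The difference with overexpression was -0.13 (95% interval -0.35 to 0.09; limma, Benjamini-Hochberg adjusted p = 0.284), and it was called with median-ratio scaling (-0.25, adjusted p = 0.0345) and quantile normalization (-0.30, adjusted p = 0.016). EGCG against overexpression gave -0.29 ± 0.0989 (SE; limma, Benjamini-Hochberg adjusted p = 0.0339), called in 9 of 18 alternatives. The call was lost without overexpression library 1 (limma, Benjamini-Hochberg adjusted p = 0.121), overexpression library 3 (0.0521), EGCG library 1 (0.116) or EGCG library 3 (0.0666). Against control it was -0.42 (limma, Benjamini-Hochberg adjusted p = 0.0231), called in 15 of 18.

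Ftl1, on chromosome 7, encodes the ferritin light chain, which helps to form the mineral core. It was the most abundant member in every library, at 228, 239 and 309 TPM in control cells, 434, 416 and 403 TPM with overexpression and 350, 342 and 320 TPM with EGCG. No pair of groups overlapped, though control library 3 lay close to the lowest EGCG library. It rose 1.61-fold with overexpression (log2 fold change 0.70 ± 0.106, SE by limma; Benjamini-Hochberg adjusted p = 0.000446), and that call held in all 18 alternatives. The value of EGCG against overexpression was -0.31 (limma, Benjamini-Hochberg adjusted p = 0.0357), called in 7 of 18 alternatives and lost on leaving out any of the 6 libraries (adjusted p from 0.0597 to 0.103). Against control it was 0.39 (limma, Benjamini-Hochberg adjusted p = 0.0347), called in 11 of 18.

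Ncoa4, on chromosome 14, encodes the receptor that carries ferritin into autophagosomes. It was at 17.0, 18.1 and 19.3 TPM in control cells, 28.1, 25.6 and 27.8 TPM with overexpression and 20.5, 22.2 and 21.4 TPM with EGCG, and again the EGCG libraries lay between the other groups without overlap. The log2 fold change was 0.56 ± 0.0615 with overexpression (SE; limma, Benjamini-Hochberg adjusted p = 6.70e-05) and -0.33 ± 0.0615 for EGCG against overexpression (SE; limma, Benjamini-Hochberg adjusted p = 0.00177). Both calls held in all 18 alternatives, while the difference of EGCG from control (0.23; limma, Benjamini-Hochberg adjusted p = 0.0356) held in 11.

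Near-identical copies limit the storage genes. Of the 31-base stretches of Ftl1-201, 85.4% also occur in other annotated genes, among them the copies Ftl1-ps1, Ftl1-ps2, Ftl2-ps and Gm15590, whose summed TPM was 2.52 to 8.31. For Ncoa4-202 the share was 44.6%, mostly with Gm6768 at 0.17 to 0.64 TPM, and for Fth1-201 it was 12.9%. Reads from such stretches were shared out by the authors' estimation, so these levels are uncertain. Tfrc-201, Aco1-201, Ireb2-201 and Hmox1-201 shared no such stretch with other annotated genes. The other transcripts in these gene sums were not checked for shared stretches.

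Slc40a1, on chromosome 1, encodes ferroportin, the only known exporter of iron from mammalian cells. It was low, at 0.91, 0.97 and 1.05 TPM in control cells, 2.15, 1.94 and 1.71 TPM with overexpression and 1.36, 1.39 and 1.23 TPM with EGCG, with no overlap between groups. Group means rose 1.98-fold with overexpression, and the log2 fold change of 0.57 ± 0.0760 (SE; limma, Benjamini-Hochberg adjusted p = 0.000216) understates this because 1 was added to each TPM. EGCG against overexpression gave -0.33 (limma, Benjamini-Hochberg adjusted p = 0.00546). Both calls held in all 17 alternatives that tested the gene. The difference of EGCG from control was 0.24 (limma, Benjamini-Hochberg adjusted p = 0.0611) and did not pass. Since 2 control libraries lay under 1 TPM, the gene passed the filter on low values through the other groups.

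Aco1, on chromosome 4, encodes IRP1, which is a cytosolic aconitase when it holds an iron-sulfur cluster and binds IREs when it does not. It was at 9.01, 9.35 and 8.93 TPM in control cells, 14.3, 13.0 and 13.1 TPM with overexpression and 10.6, 10.5 and 10.5 TPM with EGCG. The EGCG libraries again lay between control and overexpression with no overlap. The log2 fold changes were 0.52 ± 0.0508 (SE; limma, Benjamini-Hochberg adjusted p = 3.38e-05) and -0.33 ± 0.0508 (SE; limma, Benjamini-Hochberg adjusted p = 0.000653), both called in all 18 alternatives. The value of EGCG against control, 0.19 (limma, Benjamini-Hochberg adjusted p = 0.0333), was called in 11 of 18.

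Ireb2, on chromosome 9, encodes IRP2, which is controlled mainly by iron-dependent breakdown of the protein. It was at 5.32, 5.13 and 5.24 TPM in control cells, 5.38, 4.07 and 4.20 TPM with overexpression and 4.31, 4.23 and 4.92 TPM with EGCG. Overexpression library 1 lay above all control libraries and the other overexpression libraries below them. The log2 fold change of -0.17 (95% interval -0.38 to 0.03; limma, Benjamini-Hochberg adjusted p = 0.128) did not pass, and 4 of 18 alternatives called it lower, among them the fit without overexpression library 1 (-0.28, adjusted p = 0.0116). EGCG against overexpression gave -0.01 (95% interval -0.22 to 0.20; limma, Benjamini-Hochberg adjusted p = 0.931). The difference between Aco1 and Ireb2 in their response was not tested.

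Hmox1, on chromosome 8, encodes the inducible heme oxygenase. It was at 13.4, 13.2 and 13.8 TPM in control cells, 18.8, 18.8 and 20.0 TPM with overexpression and 12.3, 14.0 and 13.6 TPM with EGCG. The overexpression libraries stood above all others, and the EGCG and control libraries overlapped. Its log2 fold changes were 0.48 ± 0.0578 (SE; limma, Benjamini-Hochberg adjusted p = 0.000116) and -0.50 ± 0.0578 (SE; limma, Benjamini-Hochberg adjusted p = 0.000124), both called in all 18 alternatives. EGCG differed from control by -0.02 (95% interval -0.15 to 0.11; limma, Benjamini-Hochberg adjusted p = 0.846).

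**Figure D2:**
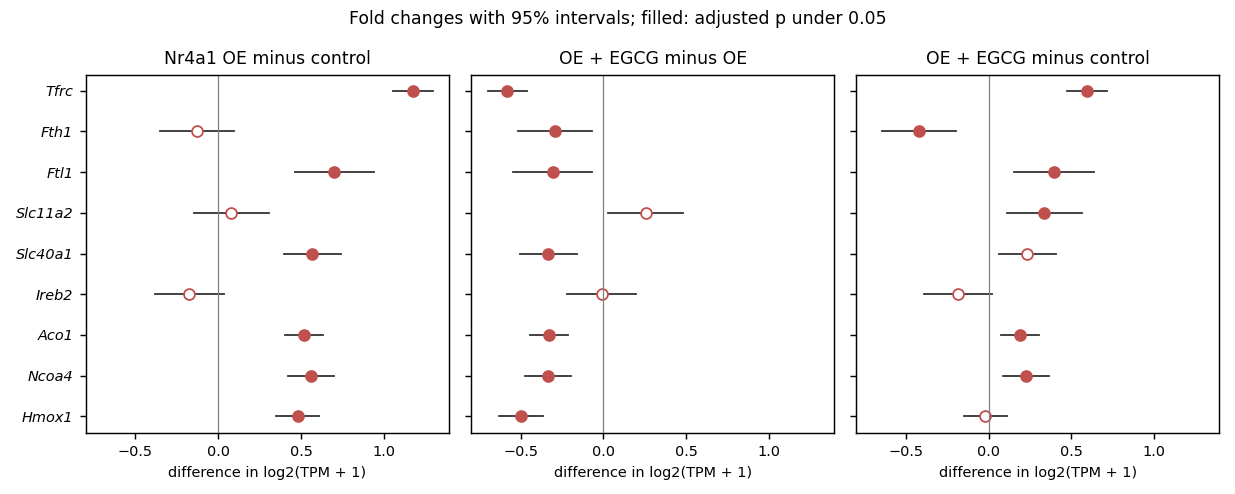
Difference in mean log2(TPM + 1) of the 9 tested members (points) with limma's 95% intervals (lines), in 3 panels for the 3 comparisons, filled where the adjusted p was under 0.05. Tfrc has the largest value in the left panel (1.18), and the 7 filled points of the middle panel are all below 0.

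The order of levels was the same at both ends in every group. Ftl1 came first, Fth1 second, and Slc40a1 and Steap3 last. Tfrc moved from a mean of 14.1 TPM in control, below Ncoa4 (18.1 TPM) and overlapping the libraries of Hmox1 (13.5 TPM), to 33.2 TPM with overexpression, above Ncoa4 (27.2 TPM) with no overlap. With EGCG the libraries of Tfrc (mean 21.9 TPM) and Ncoa4 (mean 21.4 TPM) overlapped. Slc11a2 and Ireb2 overlapped with overexpression but not in control or with EGCG.

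Ratios within a library do not depend on the scaling of TPM. The ratio of Tfrc to Fth1 (receptor to heavy chain) was 0.199, 0.214 and 0.271 in control, 0.498, 0.624 and 0.634 with overexpression and 0.506, 0.441 and 0.465 with EGCG. Both overexpressing groups lay above control and overlapped each other. By geometric means the log2 difference from control was 1.36 with overexpression (exact permutation test, two-sided p = 0.1, n = 3 each) and 1.06 with EGCG (exact permutation test, p = 0.1), where 0.1 is the smallest p that 3 against 3 allows. EGCG against overexpression gave -0.31 (exact permutation test, p = 0.2).

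The ratio of heavy to light ferritin chain was 0.303, 0.267 and 0.179 in control, 0.147, 0.128 and 0.136 with overexpression and 0.123, 0.145 and 0.147 with EGCG. It was lower in every overexpressing library than in any control library, though control library 3 was far nearer to them than the other controls. The log2 difference was -0.84 with overexpression and -0.82 with EGCG against control (exact permutation test, p = 0.1 each), and 0.01 between the overexpressing groups (exact permutation test, p = 1).

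**Figure D3:**
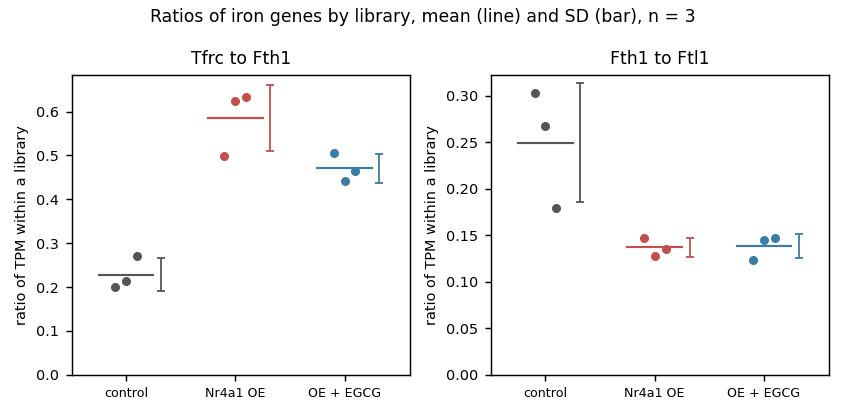
Ratios of TPM within each library (vertical axes, from 0) for Tfrc to Fth1 and Fth1 to Ftl1, with points for libraries, lines for group means and bars for SD (n = 3). The ratio of Tfrc to Fth1 is at most 0.271 in control and at least 0.441 in the other groups, and that of Fth1 to Ftl1 is at least 0.179 in control and at most 0.147 elsewhere.

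The transcripts of a gene were estimated separately, which shows the IRE-bearing forms. Transcripts of 1 gene overlap in sequence, so their shared reads were divided by the authors' estimation. Transcript values are thus less certain than gene sums. The members had 65 transcripts, of which 22 were tested. With overexpression 13 rose and 2 fell, with EGCG against overexpression 2 rose and 7 fell, and with EGCG against control 6 were higher and 1 lower. Over all tested transcripts 46.3% were called in the first of these comparisons (29.9% higher and 16.4% lower), 33.1% in the second (11.5% higher and 21.7% lower) and 11% in the last (6.41% higher and 4.56% lower). The last member count was 0 without EGCG library 1 (limma; 12 had an unadjusted p under 0.05), 2 without control library 2, 3 without control library 1, 4 without EGCG library 2 or EGCG library 3, 11 without control library 3, and 0 with only the groups compared (limma; 13 had an unadjusted p under 0.05). Calls over all tested transcripts moved in the same fits, from 2571 to 590 without EGCG library 1 and 793 without control library 2. They were 930 without control library 1, 1149 without EGCG library 2 and 1991 without EGCG library 3. Without control library 3 they were 4428, and with only the groups compared 552. Tfrc-206 and Slc40a1-201 were under 1 TPM in every control library, so they entered the test only through the groups where they were higher. Without them 11 rose and 2 fell with overexpression, 2 rose and 6 fell with EGCG against overexpression, and 5 were higher and 1 lower with EGCG against control. These counts still hold Tfrc-202 and Tfrc-204, whose lowest control libraries were at 0.61 and 0.14 TPM. They also hold Slc11a2-207, whose lowest overexpression library was at 0 TPM. Each of these passed the filter with the help of groups where it was higher, so these counts keep part of that limit. On simulated data of the first comparison, 5.62% to 15.3% of transcript calls were false in 3 draws, above the 5% aimed at. Of simulated log2 changes of 1, 60% to 70% were recovered for transcripts and 92% to 97% for genes. By these values transcript calls are less firm than gene calls. Far fewer transcripts were changed in the simulation than were called in the data, so the false share may differ for the real calls.

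Tfrc-201, the full-length coding transcript with all 4 hairpin matches, was at 8.92, 8.99 and 8.91 TPM in control cells, 24.8, 25.9 and 28.2 TPM with overexpression and 11.99, 13.4 and 10.7 TPM with EGCG. The groups did not overlap, and the EGCG libraries were far nearer to control than to overexpression. Its log2 fold change was 1.45 ± 0.0813 with overexpression (SE; limma, Benjamini-Hochberg adjusted p = 1.25e-05) and -1.07 ± 0.0813 for EGCG against overexpression (SE; limma, Benjamini-Hochberg adjusted p = 6.65e-05). Its share of the TPM of the gene went from 63.2% to 79.1% and then 55.0%. Against control the EGCG value of 0.38 (limma, Benjamini-Hochberg adjusted p = 0.0258) lost its call without control library 1 (adjusted p = 0.0725), control library 2 (0.0727), EGCG library 1 (0.0826) or EGCG library 2 (0.0591).

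Shorter Tfrc transcripts differed in their values, and a difference between transcripts in their response was not tested. Tfrc-202, a coding transcript with no hairpin match, was at 1.09, 0.61 and 1.4 TPM in control cells, 2.34, 2.43 and 2.0 TPM with overexpression and 3.27, 2.3 and 3.33 TPM with EGCG. It rose with overexpression (0.70; limma, Benjamini-Hochberg adjusted p = 0.00972), and EGCG against overexpression gave 0.28 (limma, Benjamini-Hochberg adjusted p = 0.242). Tfrc-205, a short transcript annotated with a retained intron, went the other way from Tfrc-201 in both comparisons, at 3.26, 2.95 and 3.11 TPM in control cells, 2.0, 1.95 and 1.98 TPM with overexpression and 2.87, 3.16 and 3.76 TPM with EGCG (-0.46 and 0.51; limma, Benjamini-Hochberg adjusted p = 0.00281 and 0.00256). The retained-intron transcript Tfrc-204 had its highest values with EGCG, 2.03 to 2.53 TPM against 0.97 to 1.6 TPM with overexpression and 0.14 to 1.01 TPM in control, where 1 library reached 1 TPM. Tfrc-206, also annotated with a retained intron, was at 0.33 to 0.55 TPM in control, 1.14 to 1.52 TPM with overexpression (0.69; limma, Benjamini-Hochberg adjusted p = 0.00469) and 1.01 to 1.67 TPM with EGCG, against overexpression -0.08 (limma, Benjamini-Hochberg adjusted p = 0.698). The receptor genes named beside Steap3 were highest in control libraries (0.0338 to 0.0728 TPM a gene). They were far lower with EGCG (0.00531 to 0.00797) and lowest with overexpression (0.00286 to 0.00319). What such a background adds to these transcript values was not tested. When only transcripts annotated as protein coding were summed, a setting added after seeing the data, the gene values of Tfrc were 1.43, -0.89 and 0.54 in the 3 comparisons, all called.

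**Figure D4:**
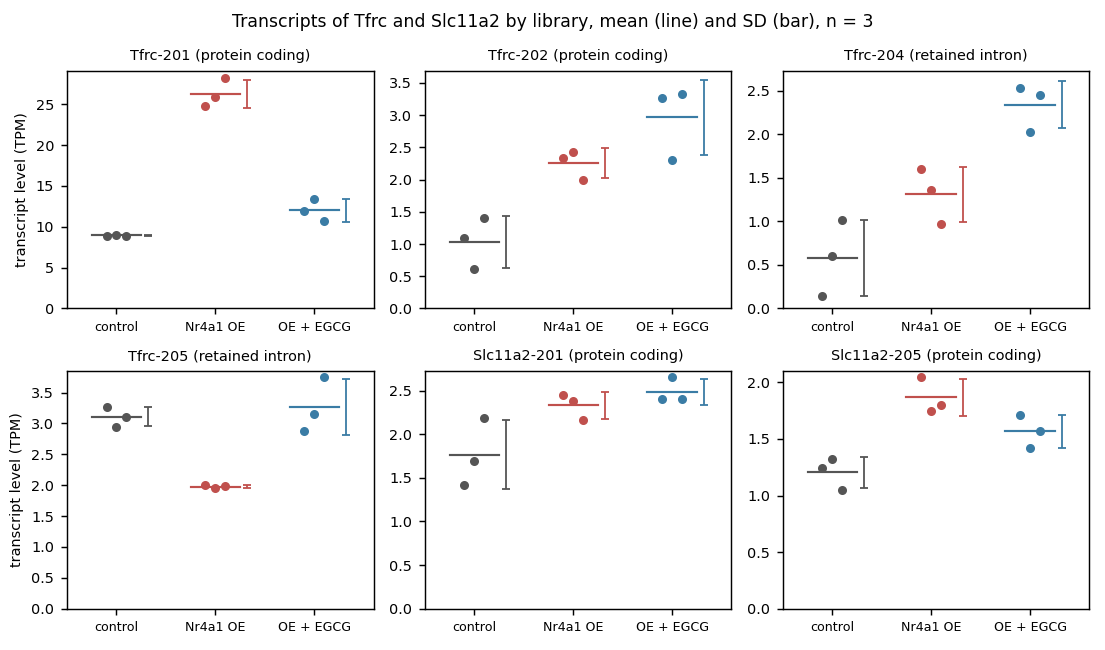
Transcript level in TPM (vertical axes, from 0, each on its own scale) of 4 Tfrc and 2 Slc11a2 transcripts in the 9 libraries, with points for libraries, lines for group means and bars for SD (n = 3). Tfrc-201 was highest with overexpression (24.8 to 28.2 TPM), whereas the retained-intron transcript Tfrc-205 was lowest there (1.95 to 2.0 TPM).

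Slc11a2-205, the transcript whose hairpin is printed above, was at 1.24, 1.32 and 1.05 TPM in control cells, 2.05, 1.75 and 1.8 TPM with overexpression and 1.71, 1.42 and 1.57 TPM with EGCG. No pair of groups overlapped, and the overexpression libraries were highest. It rose with overexpression (0.38 ± 0.0884, SE by limma; Benjamini-Hochberg adjusted p = 0.00896), unlike the gene as a whole, and EGCG against overexpression gave -0.16 (limma, Benjamini-Hochberg adjusted p = 0.208). Slc11a2-201, a coding transcript with no match, had means of 1.77, 2.33 and 2.49 TPM and a log2 fold change of 0.28 with overexpression (limma, Benjamini-Hochberg adjusted p = 0.0628), called without control library 3 (adjusted p = 0.00996). The short Slc11a2-207, of 389 bases, fell from 2.27 to 2.55 TPM in control to 0 to 1.35 TPM with overexpression (-1.14; limma, Benjamini-Hochberg adjusted p = 0.0133) and was at 1.69 to 3.05 TPM with EGCG.

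For Ncoa4 the main coding transcript Ncoa4-201 had means of 11.2, 18.4 and 13.2 TPM (0.67 and -0.45; limma, Benjamini-Hochberg adjusted p = 9.29e-05 and 0.000929). Ncoa4-208, also coding, was at 2.49 to 2.9 TPM in control and rose without overlap to 3.44 to 4.89 TPM with overexpression (0.53; limma, Benjamini-Hochberg adjusted p = 0.0144) and had a mean of 3.82 TPM with EGCG (-0.16 against overexpression; limma, Benjamini-Hochberg adjusted p = 0.418). Ncoa4-202 had means of 2.59, 2.44 and 2.39 TPM and did not pass the test with overexpression (-0.06, 95% interval -0.27 to 0.15; limma, Benjamini-Hochberg adjusted p = 0.616). Fth1-201, Ftl1-201, Aco1-201 and Hmox1-201 each held at least 89.99% of their gene's TPM in every group mean, and Slc40a1-201 held 76.5%, 93.3% and 81.4%.

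Other genes of iron handling, listed by role, gave a mixed picture. Of 79 such genes 61 were tested. With overexpression 28 rose and 7 fell, with EGCG against overexpression 6 rose and 24 fell, and with EGCG against control 7 were higher and 5 lower. Counted in either direction, the shares called were 57.4%, 49.2% and 19.7%, near the 59.5%, 53% and 18.2% of all tested genes. The last count was 4 without EGCG library 1 and 7 without control library 1 or control library 2, instead of 12 (limma, the same threshold). Over all tested genes the calls were 735, 988 and 974 in those fits, in that order, instead of 2172. The medians were 0.16, -0.16 and 0.00, beside 0.10, -0.09 and 0.02 for all genes.

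Of 3 tested genes of uptake and reduction beyond the members, 1 rose with overexpression, the zinc and iron importer Slc39a14 (2.41 to 3.44 TPM; 0.38; limma, Benjamini-Hochberg adjusted p = 0.0118). Of 4 tested genes of storage and ferritinophagy 3 rose and 1 fell, while 38.2% of all tested genes rose and 21.3% fell. The iron chaperones Pcbp1 and Pcbp2, which load ferritin, rose from 8.83 to 12.1 TPM and from 32.6 to 44.7 TPM and fell with EGCG to 7.35 and 33.9 TPM, while the autophagy receptor Tax1bp1 dropped from 44.6 to 36.5 TPM with overexpression. Herc2, a ubiquitin ligase that targets NCOA4, rose from 8.25 to 10.8 TPM. Among 4 tested export genes Flvcr1, a heme exporter, rose from 2.40 to 4.05 TPM (0.57; limma, Benjamini-Hochberg adjusted p = 0.000207), and the ferroxidase ceruloplasmin (Cp) fell with EGCG from 2.52 to 1.31 TPM.

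Of 4 tested regulators of the iron regulatory proteins 1 rose and 1 fell with overexpression. Fbxl5, the iron-sensing subunit of the ligase that degrades IRP2, fell from 15.8 to 11.5 TPM (-0.42 ± 0.0544, SE by limma; Benjamini-Hochberg adjusted p = 0.000171) and was at 15.0 TPM with EGCG, which was higher than with overexpression (0.36; limma, Benjamini-Hochberg adjusted p = 0.000618). Narfl, which takes part in assembling cytosolic iron-sulfur clusters, rose from 4.19 to 5.87 TPM.

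In heme synthesis 60% of the 10 tested genes were called with overexpression and 60% with EGCG against overexpression, beside 59.5% and 53% of all tested genes. With overexpression 6 of the 10 rose and none fell. They included Alas1, which catalyses the first step (7.77 to 11.7 TPM), Alad (15.1 to 28.4 TPM), Uros (4.37 to 9.76 TPM; log2 value 1.00 by limma; Benjamini-Hochberg adjusted p = 3.96e-06) and Urod (7.62 to 14.0 TPM). With EGCG against overexpression 5 fell, among them Uros (to 4.54 TPM), Alad (to 17.4 TPM) and Alas1 (to 8.40 TPM), and 1, Ppox, rose. Of 9 tested genes of heme breakdown and transport 3 rose and 2 fell. Bach1, a repressor of Hmox1, rose by 0.37 on the log2 scale, and its activator Nfe2l2 fell from 9.90 to 8.08 TPM.

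Of 26 tested genes of mitochondrial iron and iron-sulfur clusters 11 rose and 3 fell with overexpression, and 3 rose and 10 fell with EGCG against overexpression. The shares called were 53.85% and 50%, beside 59.5% and 53% of all tested genes. Nubp1, a cytosolic assembly factor, had the largest change of these genes in both. It went from 4.45 to 9.92 and then 4.22 TPM (1.00 and -1.07; limma, Benjamini-Hochberg adjusted p = 1.76e-05 and 1.85e-05), its partner Nubp2 from 4.68 to 8.71 and 5.02 TPM, and the assembly factor Ciapin1 from 12.8 to 23.0 and 14.6 TPM. Abcb10, a mitochondrial transporter linked to heme synthesis, went from 2.24 to 4.49 and 2.63 TPM. Bola3, which takes part in late steps of cluster assembly, dropped from 38.2 to 24.1 TPM.

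**Figure D5:**
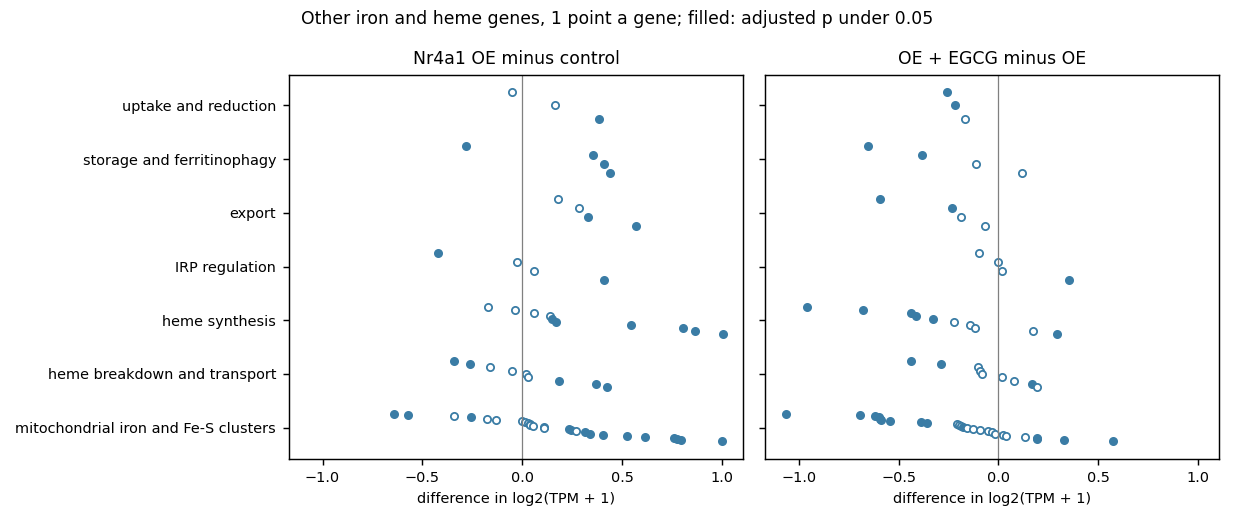
Difference in mean log2(TPM + 1) of tested iron and heme genes beyond the members (1 point a gene), by role (rows), for overexpression against control (left) and EGCG against overexpression (right), filled where the adjusted p was under 0.05. Most filled points lie above 0 on the left (28 of 35) and below 0 on the right (24 of 30). Of all tested genes called, 4561 of 7106 were higher in the left comparison and 4080 of 6330 lower in the right.

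Genes other than the members with an unbulged hairpin match in a UTR numbered 15, of which 11 were tested. They include Alas2 of heme synthesis, which was not tested, and the ferritin copy Ftl1-ps1, which was. With overexpression 3 rose and 1 fell, beside 59.5% of all tested genes called. With EGCG against overexpression 2 rose and 4 fell, beside 53% of all, and with EGCG against control 2 were higher and none lower, beside 18.2% of all.

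Promoter windows from RefSeq (GRCm38.p6), from 250 bases before each start, were at hand for 7 of the 10 members, with 14 windows in all. The sequence AAAGGTCA, the known monomer site of Nr4a receptors, was in none of the 14 on either strand and in 1.34% of 32851 windows of all genes. ACGTG or GCGTG, the core of hypoxia response elements, was in 7 of 14 member windows and in 38.6% of all windows. TGACNNNGC, the core of antioxidant response elements, was in 1 of 14 and in 10.2% of all, and GGGCGG, a GC box, was in 8 of 14 and in 32.7% of all windows. An ACGTG core of Tfrc lies 228 bases before the second of the 2 annotated starts. It begins 2 bases before the first start and so runs across it. The stretch of the Tfrc promoter around this core, with the core in capitals, reads:
Tfrc promoter: ctcggtaggtgtACGTGcggaaggaagtga
These letters say nothing about binding in MIN6 cells, and no factor binding was measured here.

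By pattern over the 9 libraries, the 3 genes most like Tfrc among 6729 with a mean of at least 5 TPM were Ddx39b (Pearson r = 0.995), Asns (r = 0.995) and Trp53 (r = 0.994), on log2(TPM + 1). Trp53 had means of 8.72, 16.8 and 11.9 TPM in control, overexpression and EGCG. For Fth1 they were Nefm (r = 0.978), Clip3 (r = 0.965) and Neurod1 (r = 0.958), with Neurod1 at 16.2, 14.7 and 11.6 TPM. Such coefficients are set by 3 group means, share the libraries and their scaling, and are given as a description.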

How the data were processed

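Total RNA of MIN6 cells was sequenced by the authors in 9 libraries, made with a stranded total RNA kit per the labels' protocols. The authors deposited TPM per Ensembl transcript. Per the submitters' processing notes the genome build was GRCm39 and the tools included RSEM 1.2.31, STAR 2.7.1a and cutadapt 2.8. Neither an annotation release nor a strand setting is given in the sources used.

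Transcripts were joined to genes with GENCODE M21, an annotation of another build, so no coordinates are given. Of 142435 transcripts 138346 matched, and the 4089 others, which held 18.0% to 20.6% of a library's TPM, were left out. TPM was summed per gene. Genes, or transcripts, that reached 1 TPM in 3 or more libraries entered limma 3.58.1 (R 4.3.3, mean-variance trend), where log2(TPM + 1) of the 9 libraries was fitted together and tested two-sided with Benjamini-Hochberg adjustment over all 11950 genes or 23437 transcripts at 0.05. Errors are SD over 3 libraries for TPM and limma's SE for fold changes. TPM keeps no depth, so no count model was used. Ratios were compared with exact permutation tests in Python 3.11.15 with scipy 1.17.1. The fits were tested on simulated data of overexpression against control in 3 draws, where 2.5% to 7.26% of calls among 11950 genes and 5.62% to 15.3% among 23437 transcripts were false. The simulation changed far fewer genes and transcripts than were called in the data, so these shares may differ for the real calls. The limit set at first on false transcript calls was exceeded in 1 draw and was then loosened.

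The members and lists were chosen with earlier results of these data known. Genes named are the members, up to 4 called genes a list and comparison by smallest adjusted p (not all of which are printed), the 3 nearest patterns of Tfrc and Fth1, and transcripts with at least 5% of a member's TPM. Sequence searches, the copy check and the chemosensory receptor genes were added after values had been seen. Alternatives covered the pseudocount, the filter, 4 scalings, the groups in the fit, the variance trend, a replicate block, leaving out each library and, added after seeing the data, protein-coding transcripts alone. Replicate numbers come from the sample titles.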

Additional observations from a re-analysis of the deposited data

How the results depend on the processing

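With overexpression against control, 6 members were called and 5 to 8 under the alternatives, and with EGCG against overexpression 7 and 5 to 8. The number of called members with EGCG against control, 6, became 2 with only the groups compared in the fit, 2 with a replicate block and 1 to 5 on leaving out a library. For the other iron genes in that comparison, 12 became 4 with only those groups, 6 with the block and 4 to 15 on leaving out a library. Over all genes tested, 2172 calls became 895 with only those groups, 1221 with the block and 735 to 3239 on leaving out a library. For member transcripts in that comparison, 7 became 3 without a filter on low values, 12 after rescaling without mitochondrial, small RNA and the most abundant genes, 2 with the block, 0 with only those groups (limma; 13 had an unadjusted p under 0.05) and 0 to 11 on leaving out a library (limma; without EGCG library 1, where 0 were called, 12 had an unadjusted p under 0.05). Over all transcripts in that comparison, 2571 calls became 2231 without that filter, 4205 after that rescaling, 1042 with the block and 552 with only those groups. On leaving out a library they were 590 to 4428. With overexpression, 15 called transcripts became 6 with a filter of 5 TPM, where 7 were tested. Over all transcripts 10845 calls became 5296 there, of 7835 tested. These were the member and list counts that moved by over 1.5 times. Where a fit used fewer samples or another filter, that is part of its construction, and otherwise the cause was not tested.

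Some small differences that were not called changed sign. The ratio of Fth1 to Ftl1 in EGCG against overexpression was -0.043 with protein-coding transcripts alone and -0.035 to 0.095 on leaving out a library. Slc11a2 with overexpression was -0.022 with median-ratio scaling, -0.0049 with quantile normalization, -0.12 with protein-coding transcripts alone and -0.0095 to 0.16 on leaving out a library. Ireb2 in EGCG against overexpression was 0.074, 0.030, 0.092 and 0.11 under the 4 scalings and -0.072 to 0.093 on leaving out a library, and Hmox1 in EGCG against control was 0.086 and 0.043 under the rescalings and -0.056 to 0.032 on leaving out a library. Of called list genes in EGCG against control, Narfl (-0.017) and Ppox (-0.19) turned with protein-coding transcripts alone, and the cause was not tested.

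The labels do not say whether replicate numbers pair the libraries. Same-numbered libraries correlated between -0.021 and 0.214 in their deviations from group means, and not every pair was above 0.1. Differently numbered libraries correlated between -0.238 and 0.121. These coefficients were not tested and cannot settle whether the libraries were paired. With the block, Ftl1 in EGCG against overexpression lost its call (limma, Benjamini-Hochberg adjusted p = 0.067) and Slc11a2 gained one (0.0445). Where a library was left out, its group of 2 shared the spread estimated over all groups. Depth is unknown, so genes near 1 TPM such as Slc40a1 have an unknown counting error. Other scalings, pseudocounts and filters kept the direction of every called member.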
